A study of Haplochromis burtoni and Eretmodus cyanostictus and Lepidiolamprologus attenuatus with 30 samples.

Results

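The middle of the gut of Lepidiolamprologus attenuatus, a cichlid of Lake Tanganyika, was compared with both ends of the same gut. Section 3 of 5 was set against the mean of sections 1 and 5 within each fish, by position alone and not by any measured value. This takes 6 of the 30 RNA sequencing libraries of the series, 3 from fish 6 and 3 from fish 7. Per the labels, every intestine was cut into 5 parts of equal length from front to back, and each part was extracted as total RNA and sequenced on its own. The series holds 2 fish each of L. attenuatus, Haplochromis burtoni and Eretmodus cyanostictus, with no treatment or genotype in the labels. The labels used here give neither the age nor the origin of the fish, and a section is a share of gut length, not an anatomical landmark. A library mixes the cell types of its section, so fewer cells of a type and less RNA per cell cannot be told apart.

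The intestine of bony fishes is specialised along its length. In zebrafish, the anterior intestine is known mainly for the uptake of lipids and of the products of digestion, a mid intestinal segment holds enterocytes that take up whole protein by endocytosis and break it down in lysosomes, and the posterior end is linked to water and ion transport. Whether those roles apply to the sections here could not be checked, because the count table lists genes by number. None of its 38425 IDs (0) was found in the gene table at hand, which lists 28690 H. burtoni genes, so no gene is named, no sequence is shown and the tissue was not checked against marker genes. The genes are described instead by the shape of their profile along the gut, and 4 of them by ID.

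The 10 L. attenuatus libraries held 6726018 to 11353391 counts on genes. The 10 most abundant genes took 21.9% and 19.2% of these counts in section 1 of fish 6 and 7, 10.2% and 12.1% in section 3, and 11.02% and 10.5% in section 5. The scaling factors (trimmed mean of M values, TMM) were 0.757 and 0.863 in section 1, 1.12 and 0.997 in section 3, and 1.11 and 1.12 in section 5. The front of the gut thus had the most concentrated transcript pool and the lowest scaling factors in both fish.

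Section 3 differed from the mean of the ends at 885 of 19697 tested genes (4.49%, edgeR quasi-likelihood F-test with the fish as a block, Benjamini-Hochberg adjusted p under 0.05). Of these, 455 genes (2.31%) were higher and 430 (2.18%) lower in the middle. The median log2 fold change was 1.53 among the higher and -1.22 among the lower genes, against a median absolute value of 0.27 over all tested genes. With only library totals as scaling, 611 genes were higher and 284 lower, and the median log2 fold change of all tested genes moved from 0.02 to 0.18. The near balance of the 2 directions therefore depended on the scaling. Without the fish block 154 genes were called. In the contrast, section 3 has as much weight as both ends together. That leaving out a section 3 library cost more calls than leaving out an end library was therefore partly set by the design. The section 3 libraries weighed most among single libraries: 257 genes were called without that of fish 6 and 142 without that of fish 7. With only 1 of the 2 fish, and the spread taken from the other species, 19 genes were called without fish 6 and 5 without fish 7.

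A difference from the mean of the ends can come from a peak, a trough or a bent gradient. The 885 genes were therefore sorted by the order of their levels in sections 1, 3 and 5 of each fish. Section 3 lay outside the range of the ends in both fish at 472 genes (53.3%). Of these, 225 were above both ends (1.14% of tested genes) and 247 below both (1.25%). How often genes that were not called show the same order is not given here. The classes rest on order alone, so some margins were small. The smallest log2 difference was 0.017 above and -0.0018 below, both to section 1 in fish 7. At 201 genes (22.7%) it lay between the ends in the same order in both fish. At the remaining 212 genes (24.0%) the fish fell into different classes or had tied levels. Ties include a gene called higher from fish 7 alone, with 0 CPM in every section of fish 6.

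**Figure D1:**
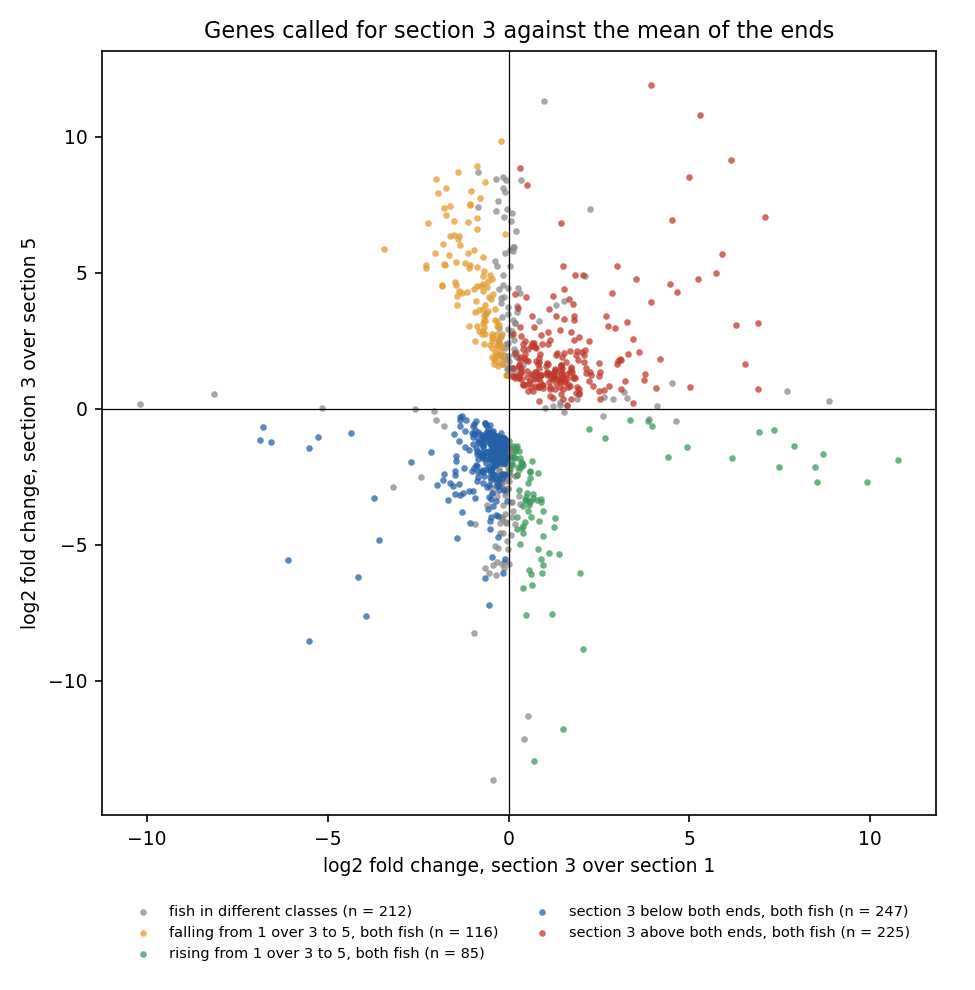
Each point is 1 of the 885 genes called for section 3 against the mean of the ends, placed by its log2 fold change of section 3 over section 1 (horizontal) and over section 5 (vertical), and coloured by profile class. The 225 genes above both ends fill the upper right and the 247 below both ends the lower left, while 116 falling and 85 rising genes lie outside these areas, most of them far from 0 on the section 5 axis only.

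The ends did not contribute equally. Against section 5 alone, 3381 genes differed in section 3 (17.2%), 1590 of them higher (8.07%) and 1791 lower (9.09%). Against section 1 alone, 545 differed (2.77%), with 304 higher (1.54%) and 241 lower (1.22%). The gap in these counts was not matched by an equal gap in size of change. The median absolute log2 difference from section 3 was 0.445 to section 1 and 0.432 to section 5 in fish 6, and 0.255 to section 1 and 0.441 to section 5 in fish 7. Differences of at least 2-fold between sections 3 and 1 were seen at 3631 genes (18.4%) in fish 6 and at 1269 genes (6.44%) in fish 7, whereas between sections 3 and 5 they were seen at 3552 and 3569 genes. Across genes, Pearson's r of section 3 was 0.934 with section 1 and 0.884 with section 5 in fish 6, and 0.959 and 0.886 in fish 7, higher with section 1 in both fish. Across genes, which are not independent replicates, the difference between sections 3 and 1 correlated between the fish with Pearson's r = 0.550, and that between sections 3 and 5 with r = 0.724. The fish 6 section 1 library had the highest share in its 10 most abundant genes and the lowest scaling factor of the 10 libraries, and the part of this in the fish difference was not tested. Leaving out that library gave 162 calls against section 1. The count was 337 without section 1 of fish 7, 129 and 102 without section 3 of fish 6 and 7, and 734 and 736 without section 5 of either fish, where sections 1 and 3 were left intact. Against section 5 it was 1817 and 1425 without section 3 of fish 6 and 7. With 1 fish left out whole, 17 and 5 genes were called against section 1 and 346 and 485 against section 5, without fish 6 and fish 7 in that order. Without the fish block 57 genes were called against section 1 and 1386 against section 5. DESeq2 called 980 and 3109, and scaling by library totals gave 865 and 3398.

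The genes that peaked in the middle formed a moderate group in number and in abundance. The 225 genes above both ends in both fish had a median log2 fold change of 1.42 over section 1 and 1.48 over section 5. Their median level in section 3 was 21.6 CPM (counts scaled to library size), against 11.3 CPM over all tested genes. Their choice favours a high level in section 3, and calls were more frequent at higher levels. This gap to all tested genes is therefore partly built in. Together the 225 genes took 2.01% and 2.18% of all CPM in section 3 of fish 6 and 7. They took 0.595% and 0.733% in section 1 and 0.824% and 0.775% in section 5. Sections 2 and 4, which are not part of the contrast but entered the fit, lay between the middle and the ends in their medians. Relative to the mean of the ends of the same fish, the median log2 level of these genes was 0.77 and 0.60 in section 2, 1.33 and 1.20 in section 3, and 0.88 and 0.61 in section 4. Section 2 itself was above both ends at 168 of the 225 genes in fish 6 and 154 in fish 7, and section 4 at 162 and 145. Over all tested genes section 2 was above both ends at 25.3% and 27.1%, and section 4 at 27.7% and 25.6%. These neighbouring sections share the end libraries with the comparison, so this is a description of the profile. The highest of the 5 section means was in section 3 for 171 genes, in section 4 for 36 and in section 2 for 18. By the choice of these genes it could not be in section 1 or 5. Over all 19697 tested genes it was in section 3 for 3079.

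A stricter group passed the test against each end separately. Section 3 was above both ends at an adjusted p under 0.05 for 60 genes (0.305% of those tested), and below both for 20 (0.102%). All of these were also among the 885 genes, and 59 of the 60 were above both ends in each fish. The other gene had a log2 difference of 0 to both ends in fish 6. Among the 60 genes, the median log2 fold change was 2.19 over section 1 (range 0.68 to 7.09) and 1.98 over section 5 (range 0.71 to 11.88). Their highest section mean lay in section 3 for 46, in section 4 for 13 and in section 2 for 1, the ends again being left out by the choice. Without the fish block 8 genes were above and 1 was below both ends. Leaving out single libraries gave 15 to 71 genes above and 2 to 40 below, the fewest without section 3 of fish 7 and the most without section 5 of fish 7. The counts above were 24 and 21 without section 1 or section 3 of fish 6, and 39 without section 1 of fish 7. The counts below were 6, 6 and 12 in the same order. Without the whole of fish 6 or of fish 7, 1 and 2 genes were above and none was below in edgeR, with 78 and 153 below at an unadjusted p under 0.05. With library totals only, the counts were 98 above and 9 below.

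Most of the genes placed below both ends by order alone had their highest level at the back of the gut. At the 247 genes below both ends in both fish, the median log2 fold change was -0.50 over section 1 and -1.66 over section 5. The highest of the 5 section means was in section 5 for 218 of them and in section 1 for 28. Over all 19697 tested genes it was in section 5 for 5802 and in section 1 for 5479. By the choice of the 247 genes it could not be in section 3. These genes took 1.24% and 1.45% of all CPM in section 3 of fish 6 and 7, 1.43% and 1.85% in section 1, and 6.46% and 7.42% in section 5. Section 2 was below both ends at 211 of the 247 genes in fish 6 and 184 in fish 7, against 23.7% and 27.4% of all tested genes. Section 4 was below both ends at 85 and 43 of the 247 genes, against 30.9% and 19.5% of all tested genes. Both sections are set against the end libraries that helped choose these genes, so these values only describe the profile. In the 20 genes that passed against each end, the median was -1.24 over section 1 and -1.49 over section 5. The highest section mean of these genes was in section 5 for 13 and in section 1 for 7, a weaker lean to the back. Section 3 held the lowest of the 5 section means for 19, the choice having already put it below both ends.

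**Figure D2:**
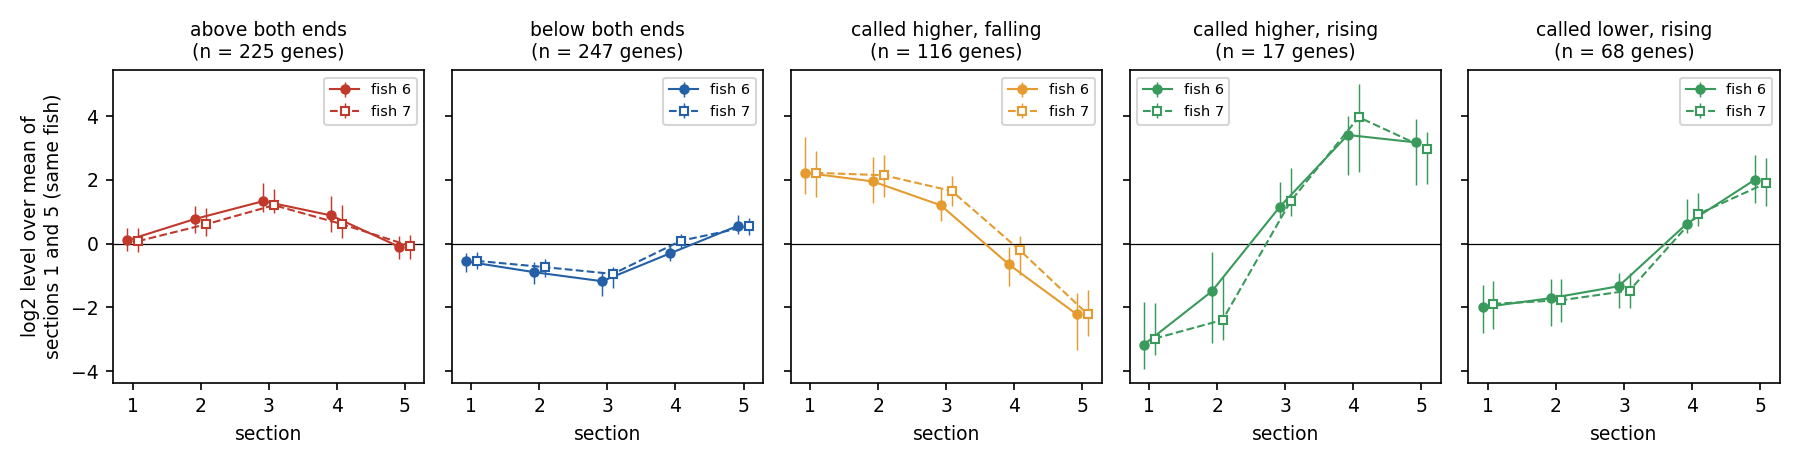
Median log2 level over the mean of sections 1 and 5 of the same fish, by section, for 5 classes of called genes in fish 6 (filled circles, solid lines) and fish 7 (open squares, dashed lines), with bars from the lower to the upper quartile over genes. Genes above both ends reach medians of 1.33 and 1.20 in section 3, and the falling genes drop below the mean of the ends in section 4.

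The genes between the ends had bent gradients by choice. A higher call requires section 3 to lie nearer to the higher end on the log2 scale. A lower call requires it to lie nearer to the lower end. The side of the bend in each class below is therefore not a finding. Of the 455 higher genes, 116 fell from section 1 over section 3 to section 5 in both fish. Their median log2 fold change was -5.23 for section 5 over section 1 and -0.71 for section 3 over section 1. That the larger drop came behind the middle was fixed by the choice, and the values describe its size. They took 17.2% and 15.0% of all CPM in section 1 of fish 6 and 7, 6.40% and 9.53% in section 3, and 0.171% and 0.294% in section 5. This class was the most abundant of the called ones in the front of the gut. A further 17 higher genes rose from front to back, with a median log2 fold change of 6.93 for section 3 over section 1 and -1.42 for section 3 over section 5. Of the 430 lower genes, 68 rose from front to back and none (0) fell. The 68 genes had a median log2 fold change of 0.53 for section 3 over section 1 and -3.40 for section 3 over section 5, and they took 0.178% and 0.162% of all CPM in section 3 and 4.49% and 3.85% in section 5.

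**Figure D3:**
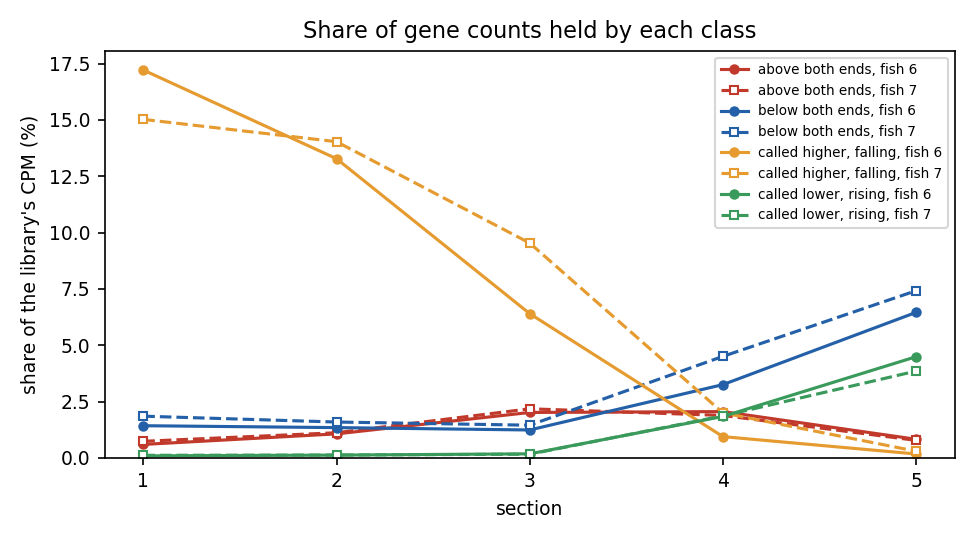
Share of a library's CPM, in percent, held by 4 classes of called genes in each of the 5 sections of fish 6 (filled circles, solid lines) and fish 7 (open squares, dashed lines). The falling genes start at 17.2% and 15.0% in section 1, while the genes above both ends stay near 2% in sections 3 and 4.

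How the ends are averaged decided most calls of the falling and rising higher genes. The mean of the ends was taken on the log2 scale, where a high and a very low end average to a low value. When counts of sections 1 and 5 were instead summed per fish at equal depth, 1159 genes were called, 257 higher and 902 lower. Of the 455 higher genes 216 remained higher, and of the 430 lower genes 422 remained lower. By class, 169 of the 225 genes above both ends and 239 of the 246 tested genes below both ends were still called, as were all 68 rising lower genes. Of the 116 falling higher genes 10 were still called higher and 2 were called lower. Of the 17 rising higher genes none was called higher and 3 were called lower. The sign of the log2 difference turned to lower at 44 of the 455 higher genes, 31 of them falling and 13 rising, whereas none of the lower genes tested turned to higher. The median log2 difference was then 0.43 over the falling and -0.60 over the rising higher genes.

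The first 2 IDs above and the first 2 below both ends were taken by the smallest of their 4 differences from an end in a fish. There were 120 genes above and 178 below to choose from, each at 20 CPM or more in section 3 (above) or in both ends (below). They show the extreme of the group: the smallest difference was 5.51 and 4.70 on the log2 scale for the 2 IDs above, while its median over the 120 genes was 0.54. For the 2 IDs below it was 2.17 and 1.87, against a median of 0.27 over the 178 genes. The choice used the differences of section 3 from the ends in L. attenuatus. Gaps to the ends and p-values against them therefore only describe the 4 IDs. The tests of the difference between species share these L. attenuatus values. Levels are CPM scaled over all 30 libraries, so that species can be set side by side.

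Gene ID 100691379 was at 4.31, 5.70, 501, 521 and 0.291 CPM in sections 1 to 5 of fish 6. In fish 7 it was at 25.7, 60.2, 1159, 752 and 3.09 CPM. Sections 3 and 4 were high and the other 3 sections low in both fish. The gap between section 3 and the ends was fixed by the choice of the ID. Section 3 averaged 830 CPM ± 465 (SD, n = 2). The log2 fold change of section 3 was 6.15 over section 1 (SE 0.68, edgeR adjusted p = 0.00338) and 9.16 over section 5 (SE 0.81, edgeR adjusted p = 0.000148). With only 2 counts in section 5 of fish 6 (the floor was 3), the second value has an uncertain size. In H. burtoni this ID lay between 0.245 and 1.35 CPM in all 10 libraries. In E. cyanostictus it was at 32.8 and 1.87 CPM in section 5 of fish 3 and 4, and between 0.0869 and 1.5 CPM elsewhere. The contrast of the middle with the ends was 8.03 higher on the log2 scale in L. attenuatus than in H. burtoni (edgeR adjusted p = 0.00851) and 10.58 higher than in E. cyanostictus (edgeR adjusted p = 0.0477). The size of both differences is uncertain. E. cyanostictus fish 3 and 4 had 2 and 1 counts in section 1 and 3 and 2 counts in section 3. H. burtoni had 3 to 11 counts in sections 1, 3 and 5.

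Gene ID 100711629 was at 1.28, 7.24, 58.5, 27.9 and 1.75 CPM in sections 1 to 5 of fish 6, and at 2.39, 42.1, 161, 43.4 and 2.29 CPM in fish 7. Section 3 was the highest section in both fish, and its gap to the ends was again fixed by the choice. The log2 fold change of section 3 was 5.90 over section 1 (SE 0.50, edgeR adjusted p = 0.000981) and 5.70 over section 5 (SE 0.49, edgeR adjusted p = 0.000122). In the other species section 5 did not return to the low levels of section 1. H. burtoni fish 1 and 2 were at 33.1 and 7.09 CPM in section 3 and at 122 and 75.5 CPM in section 5. E. cyanostictus fish 3 and 4 were at 9.27 and 25.8 CPM in section 3 and at 18.0 and 22.0 CPM in section 5. The tests of the difference between species did not pass, with a log2 difference of 4.55 to H. burtoni (edgeR adjusted p = 0.114) and 3.39 to E. cyanostictus (edgeR adjusted p = 0.255).

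Gene ID 100702164 was at 271, 177, 5.09, 236 and 445 CPM in sections 1 to 5 of fish 6, and at 196, 230, 42.0, 342 and 755 CPM in fish 7. Only section 3 was below 100 CPM among these 10 libraries, and the ratio between the 2 fish was larger in section 3 than in any other section. The log2 fold change of section 3 was -3.58 over section 1 (SE 0.67, edgeR adjusted p = 0.0318) and -4.85 over section 5 (SE 0.69, edgeR adjusted p = 0.00171). Against the mean of the ends it was -4.21 (SE 0.65, edgeR adjusted p = 0.00900), and this call did not hold without the fish block (edgeR adjusted p = 0.0827), without the filter on low counts (0.0759), with only sections 1, 3 and 5 (0.0517), or without fish 6 (0.546) or fish 7 (0.208). In H. burtoni the gene was at 242, 243, 100.1, 752 and 609 CPM in fish 1 and at 143, 153, 213, 191 and 544 CPM in fish 2. In E. cyanostictus it was at 479, 532, 223, 329 and 357 CPM in fish 3 and at 115, 119.6, 107, 497 and 333 CPM in fish 4. Section 3 was thus also the lowest section in 3 of these 4 fish, all but H. burtoni fish 2. The log2 difference between species was -3.31 to either species, and neither test passed (edgeR adjusted p = 0.278 for H. burtoni and 0.293 for E. cyanostictus).

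Gene ID 100700739 was at 188, 110, 42.8, 83.4 and 287 CPM in sections 1 to 5 of fish 6, and at 89.1, 68.0, 23.3, 90.1 and 171 CPM in fish 7. The lowest section was again section 3 in both fish, and the section 3 levels lay below all other sections. The log2 fold change of section 3 was -1.99 over section 1 (SE 0.27, edgeR adjusted p = 0.00865) and -2.80 over section 5 (SE 0.28, edgeR adjusted p = 0.000264). Against the mean of the ends it was -2.40 (SE 0.25, edgeR adjusted p = 0.00195), and this call did not hold without the fish block (edgeR adjusted p = 0.0612), with all 30 libraries in the fit (0.158), or without fish 6 (0.902) or fish 7 (0.549). H. burtoni fish 1 was also lowest in section 3, at 24.1 CPM between 99.5 in section 1 and 222 in section 5, whereas fish 2 was lowest in section 4, at 48.7 CPM. E. cyanostictus fish 3 was lowest in section 3, at 102 CPM between 303 in section 1 and 209 in section 5. Fish 4 of that species was lowest in section 1, at 23.2 CPM, with 32.7 in section 3 and 179 in section 5. The difference between species did not pass the test, at -0.61 to H. burtoni (edgeR adjusted p = 0.913) and -1.03 to E. cyanostictus (edgeR adjusted p = 0.777).

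**Figure D4:**
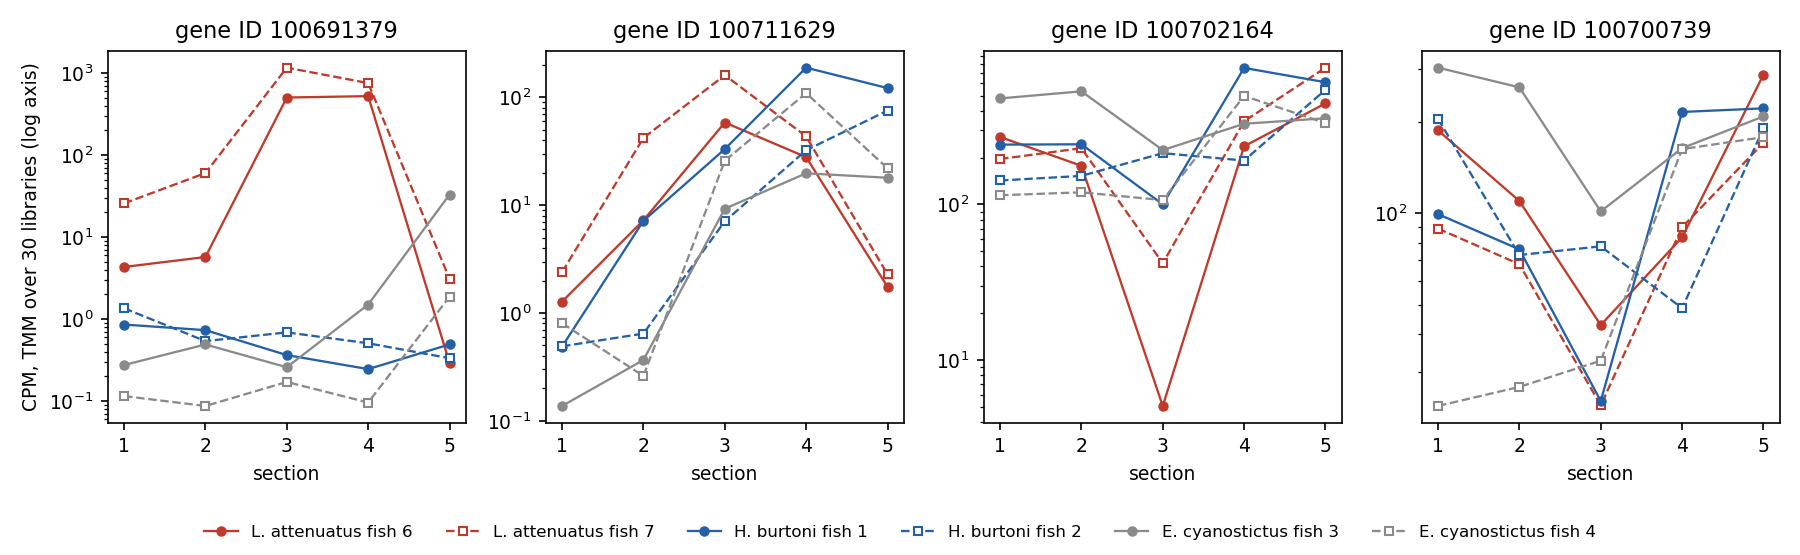
Level of the 4 gene IDs in CPM (log axis, TMM scaling over 30 libraries) by section, with 1 line per fish, for L. attenuatus (red), H. burtoni (blue) and E. cyanostictus (grey). The first and second ID are highest in the middle sections of both L. attenuatus fish, and the other two are lowest in section 3 of both.

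The same contrast was next examined in the other species, whose libraries played no part in choosing the classes. In H. burtoni, 218 of the 225 genes above both ends in L. attenuatus could be tested, and section 3 was above the mean of the ends in both fish at 127 of them (58.3%), against 28.8% of all genes tested in both species. Their median log2 fold change in H. burtoni was 0.56, against 0.01 over all. For the 247 genes below both ends, 242 were tested in H. burtoni, 161 (66.5%) were lower in the middle in both fish, against 29.96% of all, and the median was -0.49. In E. cyanostictus the values were smaller. There 79 of 212 genes (37.3%) were higher in both fish, against 26.4% of all, with a median of 0.14, and 116 of 243 genes (47.7%) were lower in both fish, against 29.3% of all, with a median of -0.24. The fish of E. cyanostictus did not weigh equally in this: the median of the genes below both ends was -0.44 in fish 3 and -0.01 in fish 4, and that of the genes above both ends 0.21 in fish 3 and -0.01 in fish 4. These values do not show a peak or trough, as the order of sections was not checked for these classes there. Of the falling higher genes, 76.8% were higher in both H. burtoni fish and 52.2% in both E. cyanostictus fish. Of the rising lower genes, 80.9% and 40.3% were lower. Of the 17 rising higher genes, 6 and 7 were higher.

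**Figure D5:**
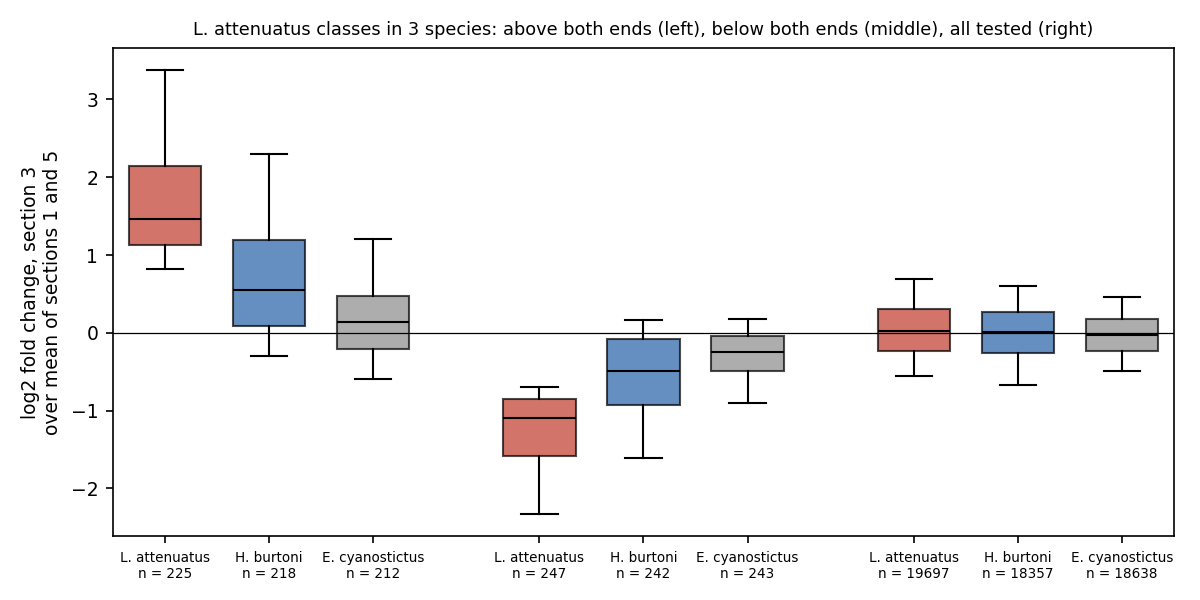
Log2 fold change of section 3 over the mean of sections 1 and 5 in L. attenuatus (red), H. burtoni (blue) and E. cyanostictus (grey), for the genes above both ends in L. attenuatus, those below both ends, and all tested genes. Boxes span the quartiles with the median as a line, and whiskers reach the 10th and 90th percentiles over genes. The L. attenuatus boxes are fixed by the choice of genes, and the H. burtoni medians of 0.56 and -0.49 lie on the same side of 0.

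Counts of called genes did not rank the species. In a fit of its own 10 libraries, H. burtoni had 7 genes called for the middle against the ends (0.0352%, with 3133 of 19886 at an unadjusted p under 0.05) and E. cyanostictus none (0%, edgeR, with 1151 of 20733 at an unadjusted p under 0.05). In a fit of all 30 libraries, which share 1 estimate of the spread, 284 genes were called in L. attenuatus (1.27%), 620 in H. burtoni (2.76%) and none in E. cyanostictus (0%, edgeR, with 1737 of 22430 at an unadjusted p under 0.05). L. attenuatus thus had more calls than H. burtoni in the first kind of fit and fewer in the second.

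The difference between species was therefore tested directly. The contrast of the middle with the ends differed between L. attenuatus and H. burtoni at 13 of 22430 genes (0.058%, edgeR, adjusted p under 0.05), with log2 differences between 1.52 and 12.23 in size. It was more positive in L. attenuatus at 6 of these and had opposite signs in the 2 species at 9. Between L. attenuatus and E. cyanostictus it differed at 5 genes (0.0223%), at all 5 with opposite signs and at 4 with the more positive value in L. attenuatus. Unadjusted p-values were under 0.05 at 2167 and 2040 genes. DESeq2 called 188 and 155 genes, and without the fish block edgeR called 5 and 2. Leaving out 1 fish gave 2 to 24 genes against H. burtoni, the lowest without fish 7 and the highest without fish 1, and 4 without fish 6. It gave 3 genes against E. cyanostictus without fish 6 or fish 7, and 18 without fish 3 or fish 4. Both sets hold 2 genes in common, one of which is ID 100691379.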

How the data were processed

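The deposited file is a table of raw counts per gene ID for 30 libraries, as whole numbers. Trimmomatic, STAR and HTSeq are named in the submitters' processing notes, with no versions, and the genome build and annotation are not given in the sources used here. Rows of unassigned reads were left out: in L. attenuatus, reads on no gene were 6.15% to 8.69% and ambiguous reads 2.68% to 3.26% of counts. Reads that fit paralogous or overlapping genes equally well could not be told apart.

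The tests were run in edgeR 4.0.16 under R 4.3.3 (filterByExpr, TMM scaling, robust dispersions, quasi-likelihood F-test, Benjamini-Hochberg adjustment over all tested genes, adjusted p under 0.05). The design held section and fish for the 10 L. attenuatus libraries, because the comparison is made within fish. Species differences were tested in a fit of all 30 libraries with section within species and fish. The SE was the absolute log2 fold change divided by the square root of F. Per-fish levels used log2(CPM + 0.5). The fish numbers of the L. attenuatus columns (6 and 7) are those of the table, while the labels number them 1 and 2. As a check of pairing, differences between the fish correlated across genes between all 10 pairs of sections, with r from 0.343 to 0.737.

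The 4 IDs were taken by a written rule: called against the mean of the ends, the same direction against each end in both fish, at least 20 CPM, and the largest smallest difference of the 4 on the log2 scale. Alternatives were no replicate block, DESeq2 1.42.0, median-ratio (RLE) scaling, no filter on low counts, an adjusted p under 0.01, fits of all 30 or of 6 libraries, leaving out libraries or fish, and summed ends. Scaling by library totals was added after the data were seen. The script was tested on simulated data. The comparison, its classes and its alternatives were chosen with earlier results of these data known. Lists of marker genes had been prepared and were not used, because the IDs have no symbols here. With only 2 fish and the fish as a block, p-values reflect how far the section profiles of those fish disagreed. The overall difference between the fish is removed by the block. The spread of each gene was estimated with information from the other genes.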

Additional observations from a re-analysis of the deposited data

Results flagged for a closer look

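The contrast of section 3 with the ends differed between L. attenuatus and H. burtoni at 13 genes and between L. attenuatus and E. cyanostictus at 5 genes, by a direct test of the difference in a fit of all libraries. Of the 13 genes, 8 were also called within L. attenuatus, and of the 5 genes, 4, against 4.49% of all genes tested there. The remaining gene of the 5 was not tested in the fit of L. attenuatus alone. This overlap is partly built in, because the difference between species contains the same L. attenuatus contrast. Gene ID 100691379 was in both sets, with an edgeR adjusted p of 0.00851 against H. burtoni and 0.0477 against E. cyanostictus. No group had the 4 libraries needed to look for outlying values.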

How the results depend on the processing

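In order, counts are given for section 3 against the mean of the ends (all, higher, lower), against section 1, against section 5, above both ends and below both ends, where they moved by more than 1.5 times from 885, 455, 430, 545, 3381, 60 and 20. An adjusted p under 0.01 gave 298, 177, 121, 145, 1711, 21 and 4. Without the replicate block they were 154, 97, 57, 57, 1386, 8 and 1, and the 154 were all among the 885. With all 30 libraries in the fit they were 284, 145, 139, 170, 17 and 3, section 5 not being among those that moved. With only sections 1, 3 and 5 they were 485, 271, 214, 262, 33 and 7, again without section 5. DESeq2 moved the lower genes to 663, the calls against section 1 to 980 and those below both ends to 47. Library totals moved the lower genes to 284, the calls against section 1 to 865, above both ends to 98 and below both ends to 9. Summing the ends gave 257 higher and 902 lower genes. RLE scaling and the absence of a filter on low counts moved none of these counts by over 1.5 times. Over the fits that left out a library or a whole fish, the counts ran from 5 to 1090 against the mean of the ends, from 5 to 514 higher, from 0 to 576 lower, from 5 to 736 against section 1, from 346 to 3364 against section 5, from 1 to 71 above and from 0 to 40 below both ends. The lowest values came from the fits of a single fish, where the fish that was left has no replicate and is assumed to vary like the other species; in edgeR, without fish 7, 1092 genes were lower at an unadjusted p under 0.05, and 78 and 153 were below both ends without fish 6 and 7. The share of called genes outside the range of the ends was 53.3%. It was 44.0% with summed ends, 48.0% at an adjusted p under 0.01, 48.1% without the replicate block, 49.1% with only sections 1, 3 and 5, and 51.3% to 59.5% under the other fits of both fish. The 58.5% to 100% when a library or fish was left out rest on the order of levels in 1 fish, not in both.

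The counts of genes that differed between species, 13 for H. burtoni and 5 for E. cyanostictus, became 5 and 1 at an adjusted p under 0.01, 5 and 2 without the replicate block, and 188 and 155 with DESeq2. RLE scaling gave 1 and no filter 2 for E. cyanostictus. Leaving out a fish gave 2 to 24 and 3 to 18. The named IDs were followed through the alternatives only for the middle against the ends within L. attenuatus, not for the difference between species. In that contrast, gene ID 100691379 passed under all 17 alternatives and ID 100711629 under 16 of 17. ID 100700739 passed under 13 and ID 100702164 under 12, and none of these IDs changed sign. At 0.01, the species difference of ID 100691379 held against H. burtoni (edgeR adjusted p = 0.00851). It did not hold against E. cyanostictus (edgeR adjusted p = 0.0477).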

Other observations

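Calls were more frequent at higher levels. Section 3 differed from the mean of the ends at 0.962% of the tested genes with a mean under 1 CPM, 1.92% from 1 to 10 CPM, 5.56% from 10 to 100 CPM and 12.7% at 100 CPM and over. The balance of directions also changed with level: from 1 to 10 CPM 123 genes were higher and 35 lower in the middle, while at 100 CPM and over 110 were higher and 127 lower.

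Presence in a single section, among sections 1, 3 and 5, was more frequent for the back of the gut than for the middle. Absence was counted for section 3 only. Over 3 counts in section 3 of both fish, with 0 in all 4 end libraries, were found at 2 of 38425 genes, with at most 31 counts. The same pattern for section 5, with 0 in sections 1 and 3 of both fish, was found at 21 genes, and for section 1, with 0 in sections 3 and 5, at 8. No gene (0) had over 3 counts in all 4 end libraries and 0 in both section 3 libraries. A count of 0 here means that no read was counted, which does not show that the gene was silent. The limit of 3 counts applied only to the sections called present.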
